A study of Mus musculus with 59 samples.

Results

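The genes of 7 proteins that join PCGF1 in the variant PRC1 complex PRC1.1 are described here, namely *Kdm2b*, *Bcor*, *Bcorl1*, *Skp1a*, *Usp7*, *Rybp* and *Yaf2*. They were chosen by their known place in the complex and not by their expression, and all 7 were found by symbol among the 24391 genes of the series. RNA-seq was performed on 59 libraries of mouse ESCs, which are pluripotent cells grown on MEF feeder cells with LIF, SU5402, PD184352 and CHIR99021, and of EBs, the aggregates that ESCs form during 2 days of culture without these factors on low-attachment dishes. All 6 conditional lines carry ERT2-Cre, a recombinase that 4-OHT activates, so controls are untreated cells of the same line and mutants are treated cells, and an effect of 4-OHT itself cannot be told apart from that of the deletion.

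The *Pcgf1* line is *Pcgf1* f/f without 4-OHT and *Pcgf1* delta/delta (here *Pcgf1*-KO) with it, and has 4 control ESC, 5 *Pcgf1*-KO ESC, 5 control EB and 5 *Pcgf1*-KO EB libraries. The *Ring1A*-pm;*Ring1B*-cpm line is *Ring1a* pm/pm in all its cells and turns *Ring1b* to pm/pm with 4-OHT, alleles that leave RING1A and RING1B without catalytic activity, and has 2 libraries in each of the 4 groups. The other 4 lines, with 8 libraries each, are *Ring1a*-/-;*Ring1b* f/f, in which the controls lack *Ring1a* too, *Pcgf2* f/f;*Pcgf4* f/f, *Pcgf3* f/f;*Pcgf5* f/f and *Pcgf6* f/f, each with its delta/delta counterpart after 4-OHT. The labels name 1 line per genotype and do not say whether replicates are separate cultures, so *p*-values measure the spread between these libraries, which may be technical.

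PRC1.1 is one of the variant forms of PRC1, in which RING1A or RING1B with a PCGF protein places ubiquitin on histone H2A. KDM2B is a histone demethylase whose CXXC zinc finger binds unmethylated CpG dinucleotides and so brings the complex to CpG islands. BCOR or its paralogue BCORL1 binds PCGF1 through its PUFD domain and links it to KDM2B, SKP1 binds the F-box of KDM2B, USP7 is a deubiquitinase, and RYBP or its paralogue YAF2 binds RING1A and RING1B in variant PRC1 complexes and stimulates their activity.

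Among the 32 libraries of these last 4 lines, 21 carry a deposited name that gives another condition than the sample label, so the 4 lines are given as values by label and without a test. In the *Pcgf1* line, identifiers in the data place replicate 1, replicates 2 and 3, and replicates 4 and 5 in 3 library series, here A, B and C. In all 4 groups, both libraries of series B had more *Kdm2b*, *Bcor*, *Bcorl1*, *Usp7* and *Rybp* than every library of the other series, and for this reason the results on the 7 genes in this line are also given within same-numbered pairs or blocked by replicate number. The values are TPM, which are scaled for transcript length, so levels of different genes can be compared. Read depth is unknown. In bulk RNA, fewer cells of a type and less RNA per cell cannot be told apart.

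The labels were first checked on the targeted gene. *Pcgf1* was at 10.7, 11.7, 13.0 and 13.6 TPM in control ESCs and at 0.835, 1.06, 0.627, 2.77 and 1.65 TPM in *Pcgf1*-KO ESCs. Control EBs had 11.2, 7.30, 10.4, 16.6 and 16.5 TPM, and *Pcgf1*-KO EBs had 0.978, 1.53, 1.09, 2.47 and 2.32 TPM. The groups did not overlap, and *Pcgf1* fell by 3.23 ± 0.38 (SE) on the log2 scale in ESCs (adjusted *p* = 6.64e-04) and fell by 2.84 ± 0.36 in EBs (adjusted *p* = 6.37e-04), both with limma on log2(TPM + 0.1). *Rnf2* and *Ring1*, which encode RING1B and RING1A, did not pass between *Pcgf1*-KO and control cells with or without a block for the replicate number (log2 differences from 0.16 to 0.33 without it). Transcript levels cannot check a point mutation, so the *Ring1A*-pm;*Ring1B*-cpm labels were not checked in this way. *Pcgf1* was at 28.0 and 46.9 TPM in control ESCs of that line and at 30.8 and 35.7 TPM in its control EBs. All controls of the *Pcgf1* line were lower, and the cause was not tested. Summed over their markers, the ESC markers *Klf4*, *Tbx3*, *Zfp42*, *Esrrb* and *Tcl1* ranged from 1498 to 2706 TPM in control ESCs but from 103 to 231 TPM in control EBs of the *Pcgf1* line, and the epiblast markers *Fgf5*, *Otx2*, *Pou3f1* and *Dnmt3b* from 37.7 to 75.6 TPM and from 1029 to 2950 TPM.

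The promoters of *Bcor*, *Bcorl1* and *Kdm2b* are shown because these are the genes with an entry that passed a test in the comparisons that follow, and the dinucleotide in capitals is CG, which reads the same on both strands and is what the zinc finger of KDM2B binds when unmethylated. The sequences are from RefSeq on GRCm38.p6, span 300 bases around an annotated start, most of them before it, and are given on the strand of the gene. *Kdm2b* has starts at its 5′ end and starts inside the gene, from which a shorter transcript that keeps the CXXC domain is made, and 1 of each is printed. Gene-level TPM does not separate these transcripts.
Bcor, chrX:12160297-12160596, minus strand: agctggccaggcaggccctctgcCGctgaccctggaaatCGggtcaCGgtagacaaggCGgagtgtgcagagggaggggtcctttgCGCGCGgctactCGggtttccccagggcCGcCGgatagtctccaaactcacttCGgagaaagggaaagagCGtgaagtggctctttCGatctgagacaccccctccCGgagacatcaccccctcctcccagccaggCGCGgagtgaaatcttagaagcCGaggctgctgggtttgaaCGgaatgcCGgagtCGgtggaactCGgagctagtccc
Bcorl1, chrX:48341108-48341407, plus strand: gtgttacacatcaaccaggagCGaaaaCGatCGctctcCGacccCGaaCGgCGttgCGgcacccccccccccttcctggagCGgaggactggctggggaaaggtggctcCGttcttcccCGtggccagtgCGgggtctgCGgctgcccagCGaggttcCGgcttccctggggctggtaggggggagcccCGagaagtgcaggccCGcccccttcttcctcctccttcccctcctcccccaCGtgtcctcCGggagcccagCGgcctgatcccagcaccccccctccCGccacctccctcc
Kdm2b, 5′ start, chr5:122989050-122989349, minus strand: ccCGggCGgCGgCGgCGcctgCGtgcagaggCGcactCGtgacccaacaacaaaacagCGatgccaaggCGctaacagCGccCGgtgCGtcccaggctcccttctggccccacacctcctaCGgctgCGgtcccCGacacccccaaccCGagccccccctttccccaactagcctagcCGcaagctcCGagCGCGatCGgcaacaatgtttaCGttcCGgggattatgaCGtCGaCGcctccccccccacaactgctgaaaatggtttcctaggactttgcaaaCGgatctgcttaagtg
Kdm2b, internal start, chr5:122900318-122900617, minus strand: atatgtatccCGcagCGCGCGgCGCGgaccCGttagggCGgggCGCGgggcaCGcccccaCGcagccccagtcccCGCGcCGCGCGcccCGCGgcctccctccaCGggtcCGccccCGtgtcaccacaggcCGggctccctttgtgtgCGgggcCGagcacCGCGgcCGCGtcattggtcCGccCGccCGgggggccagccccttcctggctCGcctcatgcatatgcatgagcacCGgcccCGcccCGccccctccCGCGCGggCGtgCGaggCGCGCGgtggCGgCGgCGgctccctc

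CG occurred 21 times in the *Bcor* and 21 times in the *Bcorl1* promoter, and 24.8% of the 32851 promoters of the same length in the table held at least as many. The 5′ *Kdm2b* promoter printed held 28 (14.2% of promoters) and the internal one 47 (1.44% of promoters). A second 5′ entry of *Kdm2b*, chr5:122988458-122988757, held 18 (29.7% of promoters), and a second internal one, chr5:122900301-122900600, held 49 (1.02% of promoters). The entries of *Skp1* (the current symbol of *Skp1a*) and *Usp7* held 34 and 63 (7.73% and 0.0304% of promoters). *Rybp* and *Yaf2* had no entry.

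In mm9, the build of the authors' alignment, *Kdm2b* lies on the minus strand of chr5:123320677-123465089, *Bcor* on the minus strand of chrX:11613866-11737481 and *Bcorl1* on the plus strand of chrX:45694535-45761226. *Skp1a* lies on the plus strand of chr11:52045497-52060360, *Usp7* on the minus strand of chr16:8688815-8792401, *Rybp* on the minus strand of chr6:100178560-100237435 and *Yaf2* on the minus strand of chr15:93114709-93167366. All are protein-coding genes. The longest *Rybp* transcript aligned over its whole length and with 99.5% identity to a second place, chr13:66108501-66112968, annotated as *Gm6910* and not listed in the data. *Kdm2b* had a copy of 99.6% identity over 31.5% of its transcript on chromosome 4 (chr4:40858738-40860390, *Gm12397*), and *Skp1a* had one of 96.5% identity over 38.3%. Reads of these 3 genes can match in more than 1 place, how they were assigned is not given in the sources used here, and their TPM are uncertain to that extent. No such copy was found for *Bcor*, *Bcorl1*, *Usp7* and *Yaf2*.

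The level of the partner genes spanned a wide range. In control ESCs of the *Pcgf1* line, *Skp1a* had a mean of 449 ± 83.4 TPM (SD, n = 4), *Usp7* 253 ± 38.5 TPM, *Rybp* 154 ± 33.5 TPM, *Kdm2b* 57.1 ± 15.2 TPM, *Bcor* 32.02 ± 15.7 TPM, *Bcorl1* 6.21 ± 1.94 TPM and *Yaf2* 5.41 ± 1.54 TPM. *Skp1a* was above *Usp7*, *Usp7* above *Rybp*, *Kdm2b* above *Bcor* and *Bcor* above *Bcorl1* in each of the 19 libraries. *Rybp* was above *Kdm2b* in 15 of 19 libraries, all but the 4 EB libraries of series B. *Bcorl1* was above *Yaf2* in 13 of 19 libraries, with ranges apart in *Pcgf1*-KO ESCs (8.46 to 18.5 TPM against 4.02 to 8.09 TPM) and overlapping in the other 3 groups. In the *Ring1A*-pm;*Ring1B*-cpm line the order differed, as *Usp7* was above *Rybp* in 3 of 8 libraries, *Bcor* above *Bcorl1* in 7 of 8 and *Bcorl1* above *Yaf2* in 1 of 8.

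**Figure D1:**
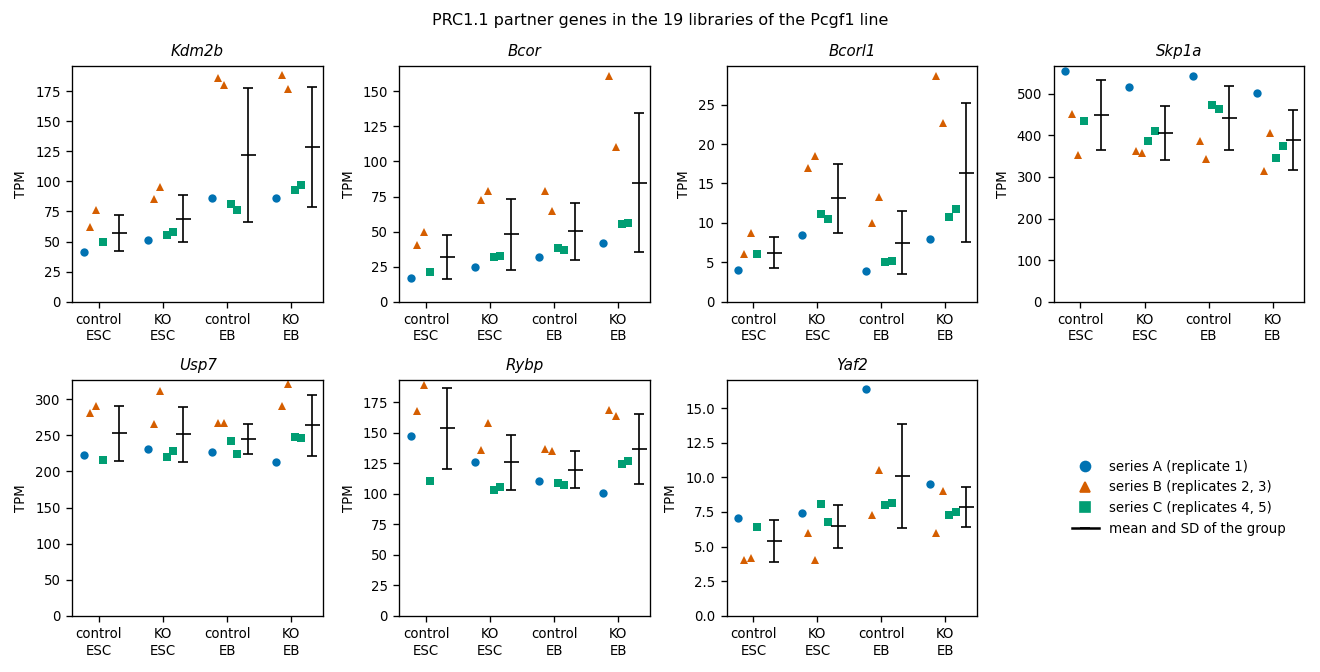
TPM of each gene (linear axis from 0) in the 19 libraries of the *Pcgf1* line by group, where a point is 1 library, its colour and shape give the library series, and the black bar is the mean and SD of the group. *Bcorl1* and *Bcor* were higher in *Pcgf1*-KO than in control libraries of the same series, *Kdm2b* was higher in control EBs than in control ESCs, and series B (triangles) lay above the other series for 5 of the 7 genes.

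*Pcgf1*-KO cells were compared with control cells to ask whether the genes of the PCGF1 partners move when *Pcgf1* is deleted. *Bcorl1* was 1.71 to 2.86 times as high in *Pcgf1*-KO as in control libraries of the same number, and *Bcor* was 1.32 to 2.05 times as high, at both stages and in every pair. None of the other 5 genes moved one way in all pairs of both stages. The share of all genes that moved one way in every pair was not counted.

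*Bcorl1* was at 3.98, 6.10, 8.71 and 6.05 TPM in control ESCs and at 8.46, 17.0, 18.5, 11.2 and 10.5 TPM in *Pcgf1*-KO ESCs. In EBs it was at 3.91, 10.03, 13.2, 5.01 and 5.14 TPM in controls and at 8.01, 28.7, 22.6, 10.8 and 11.8 TPM in *Pcgf1*-KO. At both stages the groups overlapped, since the series B controls reached the *Pcgf1*-KO level of series A. Within same-numbered pairs, *Pcgf1*-KO to control ratios were 2.13, 2.79, 2.13 and 1.84 in ESCs and 2.05, 2.86, 1.71, 2.15 and 2.29 in EBs.

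*Bcor* was at 16.6, 40.2, 49.9 and 21.4 TPM in control ESCs and at 24.7, 72.2, 78.7, 31.5 and 32.4 TPM in *Pcgf1*-KO ESCs. Control EBs had 31.9, 78.6, 64.5, 38.5 and 37.1 TPM and *Pcgf1*-KO EBs had 42.1, 161, 110.1, 55.6 and 55.95 TPM. The groups overlapped in the same way, and the pair ratios ran from 1.47 to 1.80 in ESCs and from 1.32 to 2.05 in EBs, above 1 in 4 of 4 and 5 of 5 pairs.

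Without regard to the pairs, none of the 7 genes passed an adjusted *p* of 0.05 in ESCs, where 0.641% of 20594 genes tested did, or in EBs, where 1.95% did. *Bcorl1* had log2 fold changes of 1.06 ± 0.40 (SE) in ESCs (unadjusted *p* = 0.0176, adjusted *p* = 0.375) and 1.11 ± 0.38 in EBs (unadjusted *p* = 0.00926, adjusted *p* = 0.178) with limma. With the replicate number as a block, 2 of the 7 genes passed in ESCs against 5.31% of all genes, and 2 of the 7 in EBs against 10.4%. Both times these were *Bcorl1* and *Bcor*. In the blocked fit *Bcorl1* rose by 1.14 ± 0.18 (SE) in ESCs (adjusted *p* = 0.00277) and by 1.11 ± 0.17 in EBs (adjusted *p* = 7.15e-04). *Bcor* rose by 0.65 ± 0.12 in ESCs (adjusted *p* = 0.00572) and by 0.67 ± 0.11 in EBs (adjusted *p* = 0.00132) in that fit. The block reduced the residual SD of the log2 values from 0.72 to 0.18 for *Bcor* and from 0.64 to 0.26 for *Bcorl1*. Within library series, the log2 difference of *Bcorl1* was 1.07, 1.27 and 0.83 in ESCs and 1.02, 1.14 and 1.13 in EBs for series A, B and C, and that of *Bcor* was 0.57, 0.75 and 0.58 and then 0.40, 0.90 and 0.56. In the fit without a block, *Bcorl1* passed in EBs without series B (log2 fold change 1.09, adjusted *p* = 0.0430), with median-of-ratios scaling (adjusted *p* = 0.0470) and with quantile normalization (adjusted *p* = 0.0424).

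**Figure D2:**
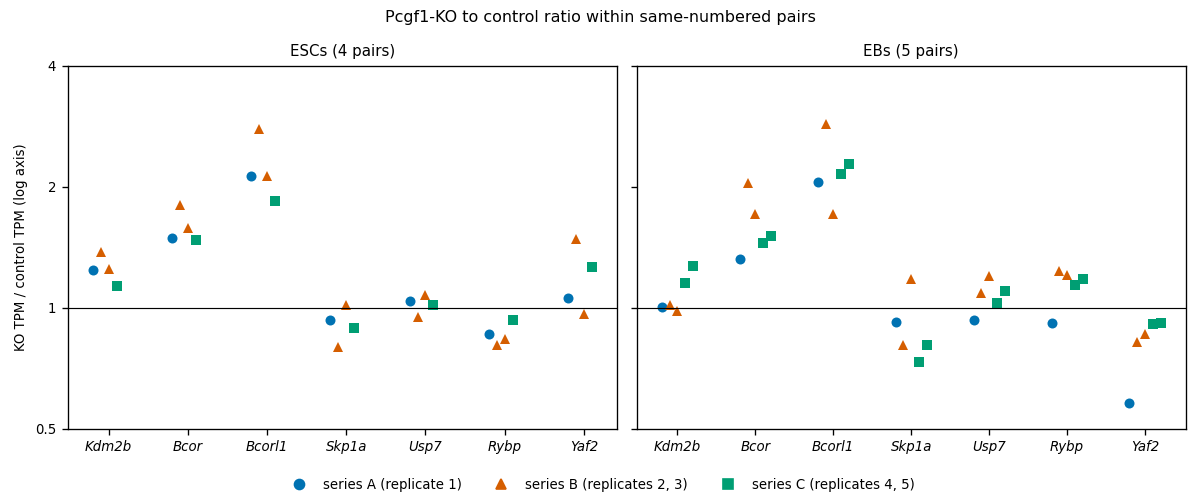
Ratio of *Pcgf1*-KO to control TPM within same-numbered pairs (log axis), in 4 pairs of ESCs and 5 pairs of EBs, where a point is 1 pair and its colour and shape give the library series. All points of *Bcorl1* (1.71 to 2.86) and *Bcor* (1.32 to 2.05) lay above 1, while *Skp1a*, *Usp7* and *Rybp* stayed between 0.73 and 1.23.

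*Kdm2b*, which recruits the complex, was at 41.3, 62.2, 75.9 and 49.2 TPM in control ESCs and at 51.1, 85.5, 94.96, 55.7 and 57.9 TPM in *Pcgf1*-KO ESCs. Its pair ratios were 1.13 to 1.38 in ESCs, and the blocked difference of 0.36 (95% CI 0.12 to 0.59) did not pass (adjusted *p* = 0.0809). In EBs its ratios were 0.98 to 1.27 and the blocked difference was 0.11 (95% CI -0.11 to 0.33).

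*Skp1a*, the adaptor that binds the F-box, ranged in ESCs between 353 and 556 TPM for controls and between 357 and 516 TPM for *Pcgf1*-KO, with blocked log2 differences of -0.14 (95% CI -0.34 to 0.05) in ESCs and -0.19 (95% CI -0.37 to -0.0040) in EBs, the latter with an adjusted *p* of 0.198. *Usp7*, the deubiquitinase, had the narrowest intervals, 0.02 (95% CI -0.11 to 0.16) in ESCs and 0.09 (95% CI -0.03 to 0.22) in EBs. Neither gene passed the test at either stage.

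*Rybp* and *Yaf2* encode the paralogous stimulatory subunits. *Rybp* was at 147, 168, 189 and 110.3 TPM in control ESCs and at 126, 136, 158, 103 and 106 TPM in *Pcgf1*-KO ESCs, lower in 4 of 4 pairs (ratios 0.81 to 0.93). In EBs it was at 110.1, 137, 135, 109 and 107 TPM in controls and at 101, 169, 163, 125 and 126 TPM in *Pcgf1*-KO, higher in 4 of 5 pairs. *Yaf2* went the other way, with ratios of 0.97 to 1.49 in ESCs, above 1 in 3 of 4 pairs, and of 0.58 to 0.92 in EBs, below 1 in 5 of 5 pairs. None of these 4 differences passed the test with or without the block.

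Whether the effect of *Pcgf1*-KO differed between EBs and ESCs was tested as a difference of effects. None of the 7 genes passed, against 0.00486% of all genes without the block and 1.62% with it. The largest were *Rybp* at 0.42 ± 0.13 (adjusted *p* = 0.132) and *Yaf2* at -0.58 ± 0.28 (adjusted *p* = 0.344) in the blocked limma fit. For *Bcorl1* the difference was -0.02 (95% CI -0.55 to 0.50) and for *Bcor* 0.01 (95% CI -0.33 to 0.35).

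The passage from ESCs to EBs was compared next. In control cells *Kdm2b* rose 2.01-fold and *Yaf2* 1.82-fold on the log2(TPM + 0.1) scale, 2 of the 7 genes against 24.9% of all genes. *Kdm2b* lay between 41.3 and 75.9 TPM in control ESCs and reached 86.2, 186, 179.8, 80.8 and 76.4 TPM in control EBs, and the groups did not overlap, with the lowest EB library next to the highest ESC library. Its log2 fold change was 1.01 ± 0.32 (adjusted *p* = 0.0272) with limma, the rise was 2.14-fold (adjusted *p* = 1.97e-06) with the block, and the 4 pair ratios were 2.09, 2.99, 2.37 and 1.64. *Yaf2* was at 7.04, 4.03, 4.16 and 6.40 TPM in control ESCs and at 16.4, 7.25, 10.5, 8.01 and 8.14 TPM in control EBs, again without overlap. It rose by 0.86 ± 0.27 (adjusted *p* = 0.0250), and by 0.88 ± 0.21 (adjusted *p* = 0.00310) with the block. The share of all genes without overlap between control EBs and ESCs is not given here, so no result is drawn from the lack of overlap.

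The blocked fit called 4 of the 7 genes against 43.9% of all genes, adding *Bcor*, which rose by 0.79 ± 0.12 (adjusted *p* = 6.74e-05), and *Rybp*, which fell by 0.30 ± 0.10 on the log2 scale (adjusted *p* = 0.0185). *Rybp* was lower in EBs in 4 of 4 pairs, and the groups overlapped. *Bcorl1* (log2 difference 0.24, 95% CI -0.15 to 0.62, blocked), *Skp1a* (-0.03, 95% CI -0.23 to 0.17) and *Usp7* (-0.00, 95% CI -0.14 to 0.13) did not pass in either fit. In the fit without the block, the *Kdm2b* call was lost without control ESC replicate 1 (adjusted *p* = 0.0855), control ESC replicate 4 (0.0663), control EB replicate 2 (0.0745), control EB replicate 3 (0.0752) or series A (0.0774). The *Yaf2* call was lost without control EB replicate 1 (adjusted *p* = 0.0699), control EB replicate 3 (0.0512), control ESC replicate 2 (0.0894), control ESC replicate 3 (0.0828), series B (log2 difference 0.60, adjusted *p* = 0.212) or series C (0.0600), and with only the 2 groups compared (0.0690). Without series B, *Bcor* passed in that fit as well (log2 fold change 0.92, adjusted *p* = 0.00734).

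In *Pcgf1*-KO cells the log2 difference between EBs and ESCs was 0.85 ± 0.30 for *Kdm2b* and did not pass (adjusted *p* = 0.0595), and none of the 7 genes did, against 18.3% of all genes. With the block, *Kdm2b* rose by 0.85 ± 0.10 (adjusted *p* = 1.32e-05) and *Bcor* by 0.80 ± 0.11 (adjusted *p* = 3.86e-05), 2 of the 7 genes against 36.8% of all genes. In the fit without the block *Kdm2b* passed without series B (adjusted *p* = 0.00117), *Pcgf1*-KO EB replicate 1 (0.0451), *Pcgf1*-KO ESC replicate 3 (0.0441), control EB replicate 2 (0.0468) or control EB replicate 3 (0.0492), and *Bcor* passed without series B (log2 fold change 0.79, adjusted *p* = 0.0105). *Yaf2* was at 7.45, 5.98, 4.02, 8.09 and 6.76 TPM in *Pcgf1*-KO ESCs and at 9.51, 5.95, 9.04, 7.28 and 7.47 TPM in *Pcgf1*-KO EBs, with pair ratios from 0.90 to 2.25. That *Yaf2* passed in control but not in *Pcgf1*-KO cells does not show a difference between them, which did not pass its own test above.

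Other markers moved between the groups too. The feeder markers *Col1a1*, *Col1a2*, *Col3a1*, *Postn*, *Lum*, *Dcn* and *Thy1* summed in ESCs to 191 to 276 TPM for controls and 146 to 219 TPM for *Pcgf1*-KO, and in EBs to 24.0 to 45.1 TPM for controls and 7.37 to 13.4 TPM for *Pcgf1*-KO, with all 7 above 0 in at least 1 library of each group except *Lum*, at 0 in all *Pcgf1*-KO EBs. The immediate early genes *Fos*, *Fosb*, *Egr1*, *Jun*, *Junb* and *Ier2*, all above 0 in every group, summed to 1127 to 1970 TPM in ESCs and 90.6 to 170.3 TPM in EBs for controls, and to 1335 to 2138 TPM and 138 to 185 TPM for *Pcgf1*-KO. In EBs the ESC markers summed to 103 to 231 TPM (median 165) for controls and 177 to 535 TPM (median 281) for *Pcgf1*-KO, and the epiblast markers to 1029 to 2950 TPM (median 1511) for controls and 323 to 1753 TPM (median 670.3) for *Pcgf1*-KO. Thus *Pcgf1*-KO EBs had the higher ESC marker median and the lower epiblast marker median, with ranges that overlapped. Their part in the differences of the partner genes was not tested.

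**Figure D3:**
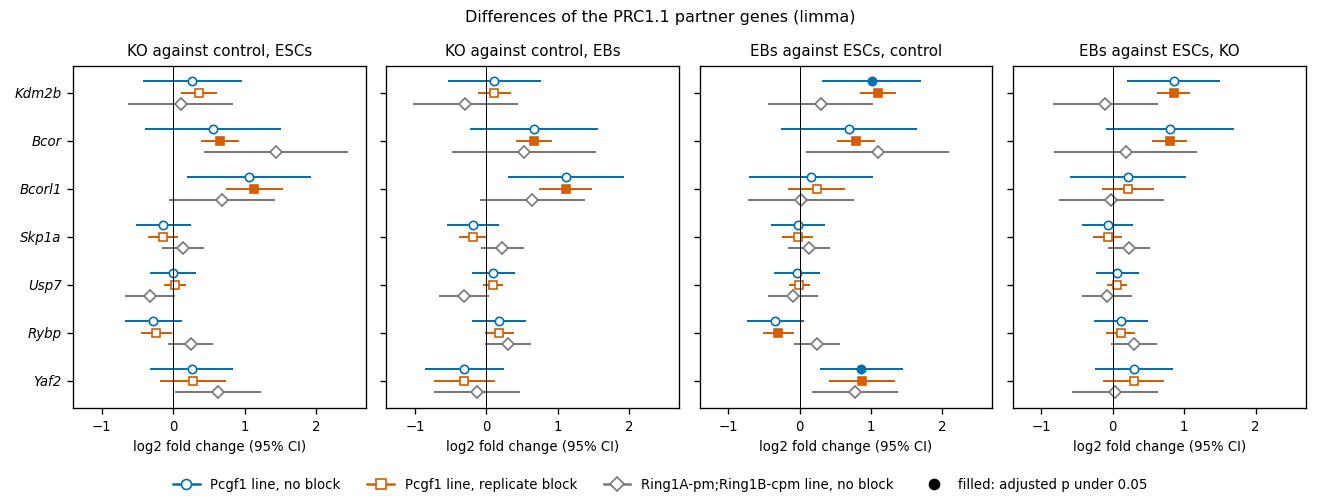
Log2 fold change and 95% CI from limma for each gene in 4 comparisons, with circles for the *Pcgf1* line without a block, squares for the same line with the replicate number as a block and diamonds for the *Ring1A*-pm;*Ring1B*-cpm line (its mutant is drawn as KO), filled where the adjusted *p* was under 0.05. *Bcorl1* and *Bcor* were called for *Pcgf1*-KO against control only with the block. In control EBs against ESCs, *Kdm2b* and *Yaf2* were called with and without it, and *Bcor* and *Rybp* only with it. *Kdm2b* and *Bcor* were called in *Pcgf1*-KO EBs against ESCs only with the block. No gene was called in the *Ring1A*-pm;*Ring1B*-cpm line.

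The balance within each paralogue pair was measured inside each library, where the scaling between libraries cancels but for the pseudocount. The log2 ratio of *Bcor* to *Bcorl1* was 2.26 ± 0.41 (SD, n = 4) in control ESCs, 1.76 ± 0.30 (n = 5) in *Pcgf1*-KO ESCs, 2.79 ± 0.30 (n = 5) in control EBs and 2.35 ± 0.095 (n = 5) in *Pcgf1*-KO EBs. It was lower in *Pcgf1*-KO than in control cells by 0.50 in ESCs (two-sided exact permutation *p* = 0.0794, adjusted over 8 tests 0.127) and by 0.45 in EBs (exact *p* = 0.0397, adjusted 0.106). The groups separated fully in *Pcgf1*-KO cells, where EBs (2.38, 2.48, 2.28, 2.36 and 2.24) lay above ESCs (1.54, 2.08, 2.08, 1.49 and 1.61), with an exact permutation *p* of 0.00794, the smallest that 5 against 5 libraries allow, and an adjusted value of 0.0635. Over the fits that left out 1 library each, the adjusted exact *p* ran from 0.0317 to 0.0952 for this difference and from 0.0317 to 0.152 for that between *Pcgf1*-KO and control EBs. Both reached 0.0317 only without control EB replicate 3, the library whose ratio stood apart from its group. The difference between *Pcgf1*-KO EBs and ESCs does not use this library, so its adjusted *p* moved only through the adjustment.

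The log2 ratio of *Rybp* to *Yaf2* was 4.82 ± 0.69 (SD, n = 4) in control ESCs and 3.62 ± 0.54 (n = 5) in control EBs, a difference of -1.20 (two-sided exact permutation *p* = 0.0238, adjusted 0.0952). In *Pcgf1*-KO cells it was 4.28 ± 0.62 in ESCs and 4.10 ± 0.50 in EBs (n = 5 each), a difference of -0.18 (exact permutation *p* = 0.651, adjusted 0.651). Thus none of the 8 differences passed after adjustment, and 3 had an unadjusted exact *p* under 0.05. Tested within same-numbered pairs, 4 pairs cannot give an exact *p* below 0.125 and 5 pairs none below 0.0625.

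**Figure D4:**
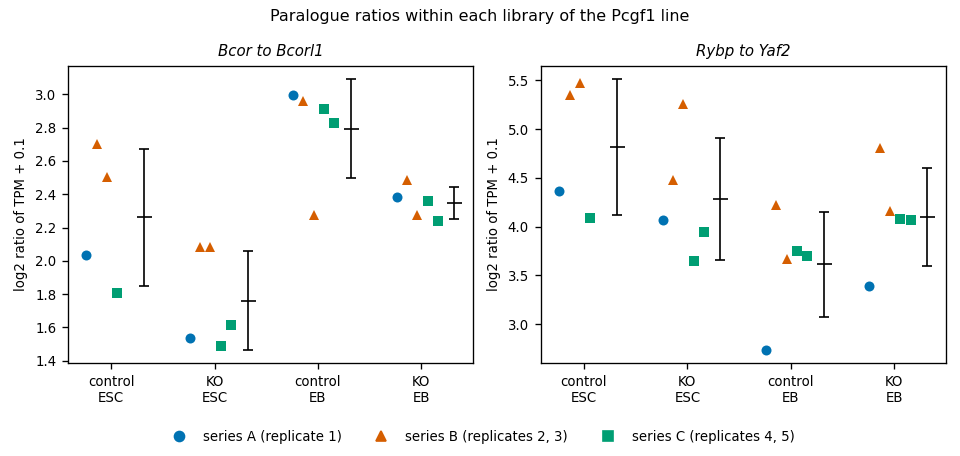
Log2 ratio of *Bcor* to *Bcorl1* and of *Rybp* to *Yaf2* in each library of the *Pcgf1* line by group, where a point is 1 library, its colour and shape give the library series, and the black bar is the mean and SD. *Bcor* to *Bcorl1* fell between 1.49 and 2.08 in *Pcgf1*-KO ESCs and between 2.24 and 2.48 in *Pcgf1*-KO EBs, and in control EBs 1 series B library stood at 2.28, below the other 4.

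In the *Ring1A*-pm;*Ring1B*-cpm line both catalytic subunits carry point mutations after 4-OHT, while PCGF1 is not deleted. *Bcor* was at 10.5 and 5.11 TPM in control ESCs and at 17.4 and 23.1 TPM in mutant ESCs, without overlap, a log2 difference of 1.44 ± 0.42 (adjusted *p* = 0.132, limma). In EBs *Bcor* was at 17.4 and 14.3 TPM in controls and at 16.0 and 32.3 TPM in mutants, with overlap. *Bcorl1* was at 9.60 and 6.54 TPM in control ESCs and 13.7 and 11.9 TPM in mutant ESCs, and at 7.61 and 8.47 TPM in control EBs and 9.65 and 16.4 TPM in mutant EBs. It was higher in both mutant groups without overlap, by 0.68 (95% CI -0.04 to 1.40) and 0.64 (95% CI -0.08 to 1.36) on the log2 scale. Groups of 2 libraries without overlap at both stages were also those of *Skp1a* and *Rybp*, higher in mutants, and of *Usp7*, lower in mutants. The share of all genes without such overlap was not counted, so no result is drawn from the lack of overlap in this line.

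None of the 7 genes passed in this line, against 2.54% of 20279 genes for mutant and control ESCs, 4.53% for mutant and control EBs, 4.73% for control EBs and ESCs, 0.133% for mutant EBs and ESCs, and 0.00986% for the difference of effects. The median log2 fold change of all genes was 0.12 between mutant and control ESCs and 0.10 in EBs. *Yaf2* had 10.2 and 8.71 TPM in control ESCs, 13.7 and 15.5 TPM in mutant ESCs, 13.9 and 19.1 TPM in control EBs and 12.5 and 17.7 TPM in mutant EBs. Between control EBs and ESCs *Yaf2* differed by 0.78 ± 0.25 (adjusted *p* = 0.139, limma), beside the 0.86 of the *Pcgf1* line without the block. *Bcor* differed by 1.09 ± 0.42 (adjusted *p* = 0.205), beside 0.69 there. *Rybp* differed by 0.24 ± 0.13 (adjusted *p* = 0.361), beside -0.34 there, the other direction. *Kdm2b* had 56.02 and 29.0 TPM in control ESCs and 54.3 and 45.1 TPM in control EBs, so the groups overlapped (log2 difference 0.30, 95% CI -0.43 to 1.02). The remaining differences of *Skp1a*, *Usp7* and *Rybp* between mutant and control cells ran from -0.33 to 0.30. The feeder markers summed to 28.6 to 39.9 TPM in the control and 60.1 to 68.1 TPM in the mutant libraries of this line, with *Lum* at 0 in all groups but mutant EBs, the ESC markers to 536 to 626 TPM in control and 1029 to 1037 TPM in mutant EBs, and the epiblast markers to 425 to 657 TPM in control and 125 to 145 TPM in mutant EBs. Their part in these differences was not tested.

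Across all 6 lines *Rybp* stood apart. It was at 1.92 to 22.7 TPM (median 11.2) in the 16 libraries of the *Pcgf2/4* and *Pcgf6* lines and at 91.8 to 194 TPM (median 126) in the other 43. The 16 libraries share 1 library series identifier, and they hold all 4 labelled conditions, with *Rybp* at 1.92 to 17.3 TPM in the 8 libraries labelled control and at 3.62 to 22.7 TPM in the 8 labelled mutant. *Skp1a* was higher in the same 16 libraries, with ranges that overlapped a little, at 610 to 975 TPM (median 783) against 314 to 625 TPM (median 487) elsewhere. *Bcorl1* was at 0.395 to 5.56 TPM there, *Kdm2b* at 9.29 to 96.5 TPM, *Bcor* at 8.15 to 28.4 TPM, *Usp7* at 143 to 239 TPM and *Yaf2* at 4.15 to 11.1 TPM, ranges that overlapped those of the other lines. *Rybp* is the partner gene with a full-length near-identical copy in the genome, and the part of read assignment in its values was not tested.

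Of the 32 libraries of these 4 lines, 11 have a label and a name that give the same condition. In the *Ring1A/B* line these are 2 control ESC libraries, with *Bcor* at 19.9 and 22.0 TPM, *Bcorl1* at 6.004 and 5.94 TPM, *Kdm2b* at 41.7 and 44.2 TPM and *Yaf2* at 6.42 and 6.74 TPM, and 2 mutant EB libraries, with *Bcor* at 74.2 and 70.3 TPM, *Bcorl1* at 21.9 and 21.8 TPM, *Kdm2b* at 60.8 and 60.8 TPM and *Yaf2* at 14.1 and 12.8 TPM. These 4 genes were higher in the mutant EBs, and so was *Rybp* (175.5 and 174 TPM against 128 and 118 TPM). *Usp7* was lower there (205 and 206 TPM against 234 and 229 TPM), and *Skp1a* overlapped (493 and 488 TPM against 500 and 444 TPM). Stage and mutation differ together in these libraries. *Rnf2*, targeted in this line, was at 78.2 and 77.2 TPM in these control ESCs and 78.1 and 80.5 TPM in the mutant EBs. Its gene-level TPM therefore do not show the deletion. In the *Pcgf3/5* line *Bcor* was at 11.5 TPM in 1 control ESC, 42.0 TPM in 1 control EB and 45.0 TPM in 1 mutant EB library, and *Bcorl1* was at 4.77, 2.55 and 1.60 TPM in the same libraries. In the *Pcgf2/4* line 1 control ESC and 1 mutant EB library had *Bcor* at 11.3 and 28.4 TPM and *Kdm2b* at 27.5 and 76.7 TPM, and in the *Pcgf6* line *Bcor* was at 8.92 and 22.2 TPM and *Kdm2b* at 29.3 and 96.5 TPM. In each of the 4 lines the concordant EB libraries had more *Bcor* and more *Kdm2b* than the concordant control ESC libraries. No other partner gene was higher in EBs in all 4 lines. *Bcorl1* was lower in the EB libraries of the *Pcgf3/5* line. It was also lower in the *Pcgf2/4* line (2.497 against 3.296 TPM) and the *Pcgf6* line (2.92 against 4.18 TPM). The share of all genes higher in EBs in all 4 lines is not given here, so no result is drawn from these EB libraries. For the *Ring1A/B*, *Pcgf2/4* and *Pcgf6* lines these EB libraries are all mutant, so stage and mutation differ together. *Kdm2b* in the *Pcgf3/5* line was at 49.3 TPM in the control ESC, 54.5 TPM in the control EB and 52.3 TPM in the mutant EB library.

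By label, the 21 other libraries gave *Kdm2b* at 81.8 and 84.1 TPM in the libraries labelled *Ring1A/B* mutant ESC and at 48.0 and 49.3 TPM in those labelled control EB. *Bcorl1* was at 4.45 and 4.93 TPM in the libraries labelled *Ring1A/B* mutant ESC and at 18.5 and 18.8 TPM in those labelled control EB. In the *Pcgf3/5* line *Bcor* was at 13.3 and 40.0 TPM in the libraries labelled mutant ESC and at 45.0 and 15.4 TPM in those labelled mutant EB, of which the first is concordant, so libraries of 1 label differed widely. No direction was drawn from these labels.

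**Figure D5:**
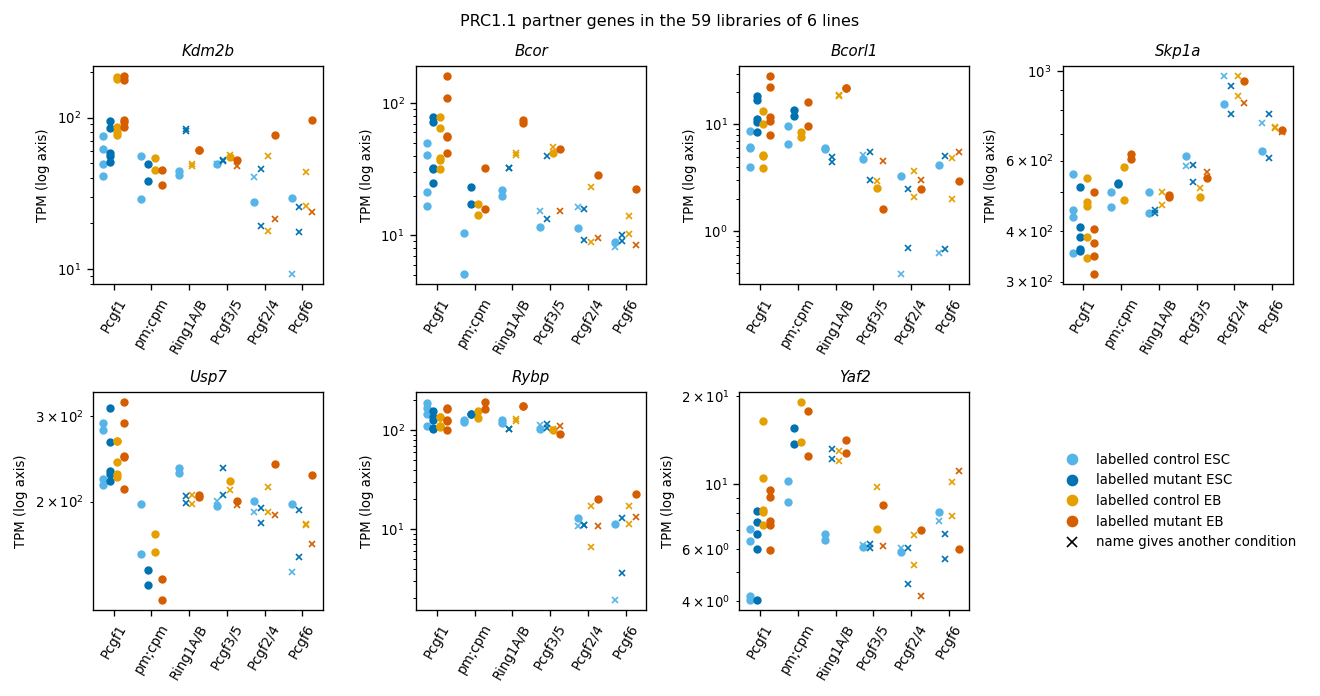
TPM (log axis) of each gene in the 59 libraries by line, where a point is 1 library and its colour gives the labelled group, and a cross marks 1 of the 21 libraries whose name gives another condition (pm;cpm stands for the *Ring1A*-pm;*Ring1B*-cpm line). *Rybp* lay at 1.92 to 22.7 TPM in the *Pcgf2/4* and *Pcgf6* lines and at 91.8 to 194 TPM in the other lines.

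Genes that work with the partners were examined in the *Pcgf1* line by lists of 11 CXXC zinc finger genes other than *Kdm2b*, 14 genes of other variant PRC1 complexes, 10 genes of SCF ubiquitin ligases that use SKP1, 4 genes of BCOR partners, 6 genes of USP7 substrates and partners, and the 3 genes of the catalytic core. They hold 47 genes, as *Dnmt1* is in 2 lists. Between *Pcgf1*-KO and control cells no gene of these lists passed at either stage except *Pcgf1* itself in the fit without the block, where 0.641% of all genes passed in ESCs and 1.95% in EBs. With the replicate block 4 of the 47 passed in ESCs against 5.31% of all genes, and 7 of the 47 in EBs against 10.4%. Beside *Pcgf1*, and named after their values were seen, these were *Ccnf*, which rose by 0.30 ± 0.057 on the log2 scale in ESCs (adjusted *p* = 0.00807), and *Fbxo5* and *Mga*, which fell by 0.46 and 0.67 there. In EBs *Tet1* rose by 0.85 and *L3mbtl2* by 0.61, while *Auts2* fell by 0.50, *E2f6* by 0.45, *Btrc* by 0.35 and *Gmps* by 0.29. *L3mbtl2*, of the PCGF6 complex, was also the 1 listed gene whose effect differed between EBs and ESCs with the block (0.39 ± 0.087, adjusted *p* = 0.0403), against 1.62% of all genes. In the fit without the block, list medians were -0.24, -0.07, -0.06, -0.24, -0.13 and 0.16 in ESCs, in the order given, beside a median of -0.02 over all genes.

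Between control EBs and ESCs 10 of the 47 genes passed against 24.9% of all genes, and with the replicate block 31 of the 47 against 43.9%. Without the block, 1 CXXC gene rose and 1 fell, as did 1 and 1 of the other variant PRC1 genes, 1 and 1 of the SCF genes, 0 and 1 of the BCOR partners, 0 and 2 of the USP7 partners and 0 and 1 of the catalytic core. With it, 5 CXXC genes rose and 4 fell, as did 6 and 3 of the other variant PRC1 genes, 3 and 3 of the SCF genes, 0 and 1 of the BCOR partners, 2 and 4 of the USP7 partners and 0 and 1 of the catalytic core. The values that follow are from the fit without the block, and each of these genes passed in the same direction with it. *Bcl6*, a sequence-specific repressor that binds BCOR, fell by 4.29 ± 0.57 on the log2 scale, from a mean of 15.1 ± 10.1 TPM (SD, n = 4) to 0.541 ± 0.12 TPM (n = 5), with an adjusted *p* of 2.28e-05. *Cul1*, the scaffold of SCF ligases, rose by 0.97 ± 0.18 (adjusted *p* = 5.95e-04), while *Btrc*, an F-box protein gene, fell by 0.49 ± 0.15 (adjusted *p* = 0.0249). *Pcgf6* rose by 0.66 ± 0.13 (adjusted *p* = 0.00109) and *Pcgf5* fell by 0.88 ± 0.27 (adjusted *p* = 0.0218). *Rnf2* fell by 0.64 ± 0.16 (adjusted *p* = 0.00530). Of the USP7 substrates, *Mdm4* fell by 1.095 ± 0.28 (adjusted *p* = 0.00734) and *Mdm2* by 0.63 ± 0.23 (adjusted *p* = 0.0493), and *Cxxc4*, which was near 0 in ESCs, rose by 3.22 ± 0.61 (adjusted *p* = 7.62e-04). *Cxxc5*, named after its value was seen because its groups overlapped, fell by 0.53 ± 0.19 (adjusted *p* = 0.0459).

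In *Pcgf1*-KO cells 11 of the 47 genes passed from ESCs to EBs against 18.3% of all genes, and 27 with the block against 36.8%, among them the 11. There *Bcl6* fell by 3.32 ± 0.53 (adjusted *p* = 2.01e-04), *Cul1* rose by 0.54 ± 0.17 (adjusted *p* = 0.0329), *Btrc* fell by 0.61 ± 0.14 (adjusted *p* = 0.00537) and *Pcgf5* fell by 0.90 ± 0.25 (adjusted *p* = 0.0178). *Cxxc4* rose by 2.07 ± 0.58 (adjusted *p* = 0.0173), *Cxxc5* fell by 0.70 ± 0.18 (adjusted *p* = 0.00886) and *Fbxo5* rose by 0.41 ± 0.12 (adjusted *p* = 0.0222). With overlapping groups, and named after their values were seen, *Pcgf6* rose by 0.39 ± 0.12 (adjusted *p* = 0.0377), *L3mbtl2* rose by 0.68 ± 0.23 (adjusted *p* = 0.0489), *Mdm2* fell by 0.75 ± 0.21 (adjusted *p* = 0.0187) and *Rnf2* fell by 0.47 ± 0.15 (adjusted *p* = 0.0310). In the *Ring1A*-pm;*Ring1B*-cpm line 1 gene of these lists passed in any comparison, *E2f6*, which rose by 1.00 ± 0.17 in mutant ESCs (adjusted *p* = 0.0315).

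Over the 19 libraries, *Kdm2b* and *Bcor* had a Pearson r of 0.89 of their log2 values, *Bcor* and *Bcorl1* 0.83, and *Usp7* and *Rybp* 0.85, while *Skp1a* had -0.80 with *Bcorl1* and -0.75 with *Bcor*, and *Rybp* and *Yaf2* had -0.60. These libraries share 3 series and 4 groups, and the values describe them only. Among 13400 genes with a mean of at least 1 TPM, the 3 nearest were *Tmcc3* (r 0.98), *E330009J07Rik* (0.98) and *G6pdx* (0.98) for *Kdm2b*, *Pik3cd* (0.97), *Actn4* (0.97) and *Iffo2* (0.96) for *Bcor*, and *Dock3* (0.94), *Mmp14* (0.93) and *Cdk6* (0.92) for *Bcorl1*. For *Skp1a* they were *Mphosph6* (r 0.92), *Ptges3* (0.87) and *Fra10ac1* (0.87), for *Usp7* *Plcb4* (0.96), *Cdc42se2* (0.95) and *Zfp318* (0.95), for *Rybp* *Wapal* (0.96), *Urb2* (0.95) and *Kif20b* (0.93), and for *Yaf2* *Larp7* (0.91), *Timm8a1* (0.91) and *Ublcp1* (0.91).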

How the data were processed

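Poly(A) RNA of 59 libraries was sequenced from NEBNext Ultra II libraries. The submitters' processing notes name STAR 2.5.2b, mm9 and DESeq2. The authors deposited TPM (abundance scaled for transcript length and to 1 fixed total per library) for 24391 genes per library, and how reads became TPM is not given in the sources used here. TPM keep no read depth, so no count test, interval or floor was possible. The kit is not described as marking strand, so reads of genes that overlap on opposite strands cannot be told apart.

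Each line was fitted over its 4 groups with limma 3.58.1 (R 4.3.3) on log2(TPM + 0.1) with a trended variance. The Benjamini-Hochberg adjustment ran over all genes with a TPM above 0 in any library of that line, and an adjusted p under 0.05 was called. Because of the pseudocount, fold changes of weakly expressed genes come out too small. The fit without a block was first tested on simulated data, for mutant against control ESCs and with independent residuals. The blocked fit and a spread shared within a library series were not simulated. In the *Pcgf1* line, deviations of same-numbered libraries from their group means correlated at 0.317 to 0.653 over 27 pairs and 13400 genes. Same-numbered libraries also share a library series, so pairing by number cannot be told apart from the series in these correlations. The blocked fit is given where it changed a call or a count. Control ESCs have no replicate 5, and 1 *Pcgf1*-KO EB library is replicate 4 by title and 5 in another label. No 2 of the 59 libraries held identical values in 1711 comparisons.

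Groups came from the labels. Beyond the 7 genes, *Pcgf1*, *Rnf2* and *Ring1*, the genes named were those of each list past the adjusted p with groups that did not overlap, at most 3 a list and comparison, and the 3 nearest genes of each member. The genes and lists were chosen with earlier results of these data known. Near-identical copies were searched in mm9 with minimap2 2.31-r1302 at 95% identity over 30% of the longest transcript. Alternatives were a pseudocount of 1, a mean TPM of at least 1, 2 scalings, the replicate block, only the groups compared and leaving out each library. The library series as a block and leaving out a series were added after seeing the data.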

Additional observations from a re-analysis of the deposited data

Results flagged for a closer look

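The log2 ratio of *Bcor* to *Bcorl1* in control EB replicate 3 of the *Pcgf1* line was 2.28, while the other 4 control EB libraries lay between 2.83 and 3.00. The gap to the nearest library was 0.764 of the range of the group. This library had *Bcorl1* at 13.2 TPM, the highest of its group, and *Bcor* at 64.5 TPM, below the 78.6 TPM of replicate 2, which is of the same library series. It was the only flag among 36 groups looked at, and chance flags about 1 in 20. Without this library the ratio differed between *Pcgf1*-KO and control EBs by -0.58 and between *Pcgf1*-KO EBs and ESCs by 0.59, both with an exact permutation *p* adjusted over 8 tests of 0.0317, against 0.106 and 0.0635 with it. The second difference does not use this library, and without any other 1 library these adjusted values ran up to 0.152 and 0.0952.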

How the results depend on the processing

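No called value reversed its direction under the alternatives run. Of the 7 genes, the number called between *Pcgf1*-KO and control ESCs went from 0 to 2 with the replicate block and to 2 with the library series as a block. Between *Pcgf1*-KO and control EBs it went from 0 to 2 with the replicate block, to 2 with the series block, and to 1 with median-of-ratios scaling, with quantile normalization and without series B, each time *Bcorl1* in those 3. Between control EBs and ESCs it went from 2 to 4 with the replicate block and 4 with the series block, to 1 with only the groups compared, without series A or without series C, and to between 0 and 2 without 1 library. Between *Pcgf1*-KO EBs and ESCs it went from 0 to 2 with the replicate block, with the series block and without series B, to 1 with the filter on mean TPM, median-of-ratios scaling or quantile normalization, and to between 0 and 1 without 1 library. The paralogue ratios past the threshold ranged from 0 to 2 without 1 library. With 2 pairs per comparison, the replicate block called 0 of the 7 genes in the *Ring1A*-pm;*Ring1B*-cpm line too, where same-numbered deviations correlated at 0.106 to 0.381 over 12 pairs. As its groups hold 2 libraries, their deviations are equal and opposite. Both replicate numbers therefore gave the same correlations, and the 12 pairs are not independent. The cause of the shifts in the number of genes called was not tested.

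Over all genes of the *Pcgf1* line, calls went from 132 to 1094 with the replicate block, 1347 with the series block, 233 with a pseudocount of 1, 208 with median-of-ratios scaling and 207 with quantile normalization between *Pcgf1*-KO and control ESCs. In EBs they went from 402 to 2143 with the replicate block, 2470 with the series block and 68 with only the groups compared. They went from 5138 to 9050 and 9255 between control EBs and ESCs and from 3770 to 7573 and 7886 in *Pcgf1*-KO cells with the same blocks, and from 1 to 333 and 487 for the difference of effects. In the *Ring1A*-pm;*Ring1B*-cpm line calls went from 515 to 1326, from 918 to 2056 and from 960 to 2018 with the block, and to 0, 169 and 464 with only the groups compared, for mutant and control ESCs, mutant and control EBs, and control EBs and ESCs. Quantile normalization called 207 for mutant and control ESCs there. Higher against lower calls between *Pcgf1*-KO and control EBs were 222 to 180, and 369 to 184 with quantile normalization. Between mutant and control EBs of the other line they were 763 to 155, 634 to 295 with median-of-ratios scaling and 481 to 299 with quantile normalization, and in ESCs 475 to 40 and then 167 to 40.

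The shares of all genes given as background rest on counts that leaving out 1 library moved. Between *Pcgf1*-KO and control ESCs they ran from 34 to 184, below 132 by over 1.5 times without control ESC replicate 1, 2 or 3 or *Pcgf1*-KO ESC replicate 2, 3, 4 or 5, and were 61, 12 and 38 without series A, B and C. In EBs they ran from 211 to 483, lowest without *Pcgf1*-KO EB replicate 4 (211) or 5 (216), and were 314, 496 and 38 without series A, B and C. For the difference of effects they ran from 0 to 7. In the *Ring1A*-pm;*Ring1B*-cpm line they ran from 22 to 52, from 9 to 357, from 156 to 533, from 0 to 78 and from 0 to 42 for mutant and control ESCs, mutant and control EBs, control EBs and ESCs, mutant EBs and ESCs, and the difference of effects, where each of the 8 libraries lowered the first 3 counts by over 1.5 times.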
